A study of Mus musculus with 6 samples.

Results

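The 10 genes described here encode 4 transmembrane mucins (Muc1, Muc4, Muc13 and Muc20) and 6 enzymes or chaperones that build mucin-type O-glycans (C1galt1, C1galt1c1, Gcnt3, B3gnt6, St6galnac1 and Fut2). They were found by their symbols among the 55487 genes of the deposited count table, and 9 of the 10 passed the filter on low counts and were tested. RNA-seq had been carried out on intestinal epithelial cells (IECs) of the colon, with 3 libraries from Nsd2 f/f mice and 3 from Nsd2 Vil-KO mice. Both groups carried the floxed Nsd2 alleles and both had been treated with DSS (dextran sodium sulphate), a chemical that damages the lining of the colon and so induces colitis. The Nsd2 Vil-KO mice also carried Cre driven by the Villin promoter, which is active in epithelium and not in the other cells of the gut wall. The controls, titled WT in the labels, had no Cre by their genotype label, so Cre itself and the loss of Nsd2 cannot be told apart. No untreated mice were compared, and the labels give no age, sex, DSS dose or day. Nsd2 encodes a methyltransferase that places dimethylation on lysine residues of histone H3. The comparison asked how the loss of epithelial Nsd2 altered the transcripts of IECs in colitis.

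Transmembrane mucins line the apical surface of colonic cells as the glycocalyx, below the mucus gel that goblet cells secrete, and they carry a heavily glycosylated ectodomain on a membrane anchor. Their O-glycans are built in the Golgi. Polypeptide GalNAc transferases add the first sugar to serine or threonine, C1galt1 extends it with galactose to the core 1 structure with the help of the chaperone C1galt1c1 (Cosmc), and B3gnt6 instead adds GlcNAc to form core 3, a structure known from the colon. Gcnt3 adds the GlcNAc branch that makes core 2 or core 4, St6galnac1 caps the first sugar with sialic acid to give sialyl-Tn, and Fut2 adds terminal fucose, making the H antigen on which many gut bacteria feed.

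The libraries held between 15439123 and 20350539 counted reads. Levels are given as CPM, the reads of a gene scaled to a common library size with TMM factors. The floor below which a gene is not called present was taken as 3 counts. On the CPM scale this floor ran from 0.146 in Nsd2 Vil-KO replicate 1 to 0.242 in Nsd2 f/f replicate 3. The library Nsd2 f/f replicate 3 and the library Nsd2 Vil-KO replicate 2 stood apart: their rank correlation with the others reached at most 0.945, against at least 0.972 among the other 4, and they alone held Xist transcripts above 5 counts (4296 and 3684). Mitochondrial genes took 19.6% of the counts in Nsd2 f/f replicate 3 and between 5.51% and 9.13% elsewhere. Nsd2 itself measured 47.9, 51.2 and 24.6 CPM in Nsd2 f/f and 24.2, 10.4 and 20.8 CPM in Nsd2 Vil-KO, so every knockout library lay below every control library, the closest pair by less than 1 CPM. Its log2 fold change was -1.16 (SE 0.39, unadjusted p = 0.0217, adjusted p = 0.992, edgeR quasi-likelihood test), and the unadjusted p no longer passed 0.05 when Nsd2 f/f replicate 1 (-1.04) or replicate 2 (-0.97) was left out, or with library size as the only scaling (-1.12, unadjusted p = 0.0617). Epithelial markers were high in each library (summed CPM of 10303 to 16302 in Nsd2 f/f and 11648 to 14479 in Nsd2 Vil-KO). The labels do not say that the libraries came from separate animals, so p-values measure the spread between these libraries, which may in part be technical.

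None of the 9 tested genes passed the test between the genotypes. A gene was called when its fold change exceeded 1.2 and its unadjusted p was below 0.05. The results of the study name these limits of fold change and p, whereas its methods name an adjusted p below 0.05 and another tool, Ballgown. Of the 9, 0 passed the criterion, against 3.29% of the 14650 genes tested (241 higher and 241 lower in Nsd2 Vil-KO). At an adjusted p below 0.05, 0 of the 9 and 0 of all genes passed (0.00%) with edgeR, 482 of all genes had an unadjusted p below 0.05, and DESeq2 called 4 genes at its adjusted p, with 0 of the 9 among them. Settings other than those named with a gene below also gave 0 of the 9, with between 2.07% and 4.32% of all genes past the criterion. The fitted log2 fold change (Nsd2 Vil-KO over Nsd2 f/f) was above 0 for 8 of the 9 and below 0 for C1galt1c1, with a median of 0.36, while 50.1% of all tested genes lay above 0 with a median of 0.0012. The values of the 2 genotypes overlapped for each of the 9. They did not overlap for 9.90% of all tested genes, and with so few genes 0 of 9 cannot be told from that share. The intervals were wide. The narrowest 95% interval, that of C1galt1c1, ran from -0.72 to 0.16 and the widest, that of Muc20, from -0.71 to 2.28, so a halving or doubling lies inside some of these intervals and was not detectable with 3 libraries a group.

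**Figure D1:**
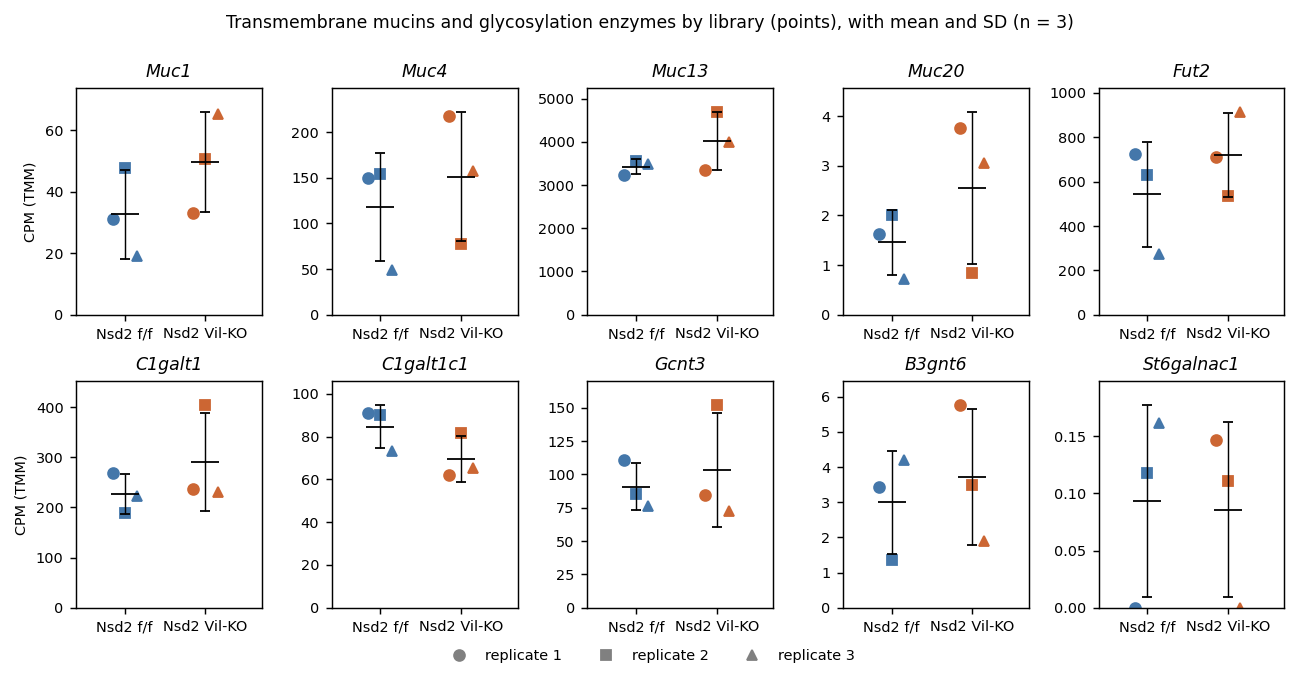
Level of each of the 10 genes by library. The y axis of each panel is CPM, points are single libraries with a shape for each replicate number, and the horizontal line and bar give the mean and SD of 3 libraries per genotype. In each panel of the 9 tested genes the points of the 2 genotypes overlap, and St6galnac1 stays at or below the floor of 3 counts.

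Muc13 was by far the highest of the 10 genes. It encodes a small mucin with epidermal growth factor-like domains that coats the brush border and is abundant in the large intestine (gene ENSMUSG00000022824, GRCm38 chr16:33794037-33819934, plus strand). It measured 3235, 3554 and 3482 CPM in Nsd2 f/f and 3349, 4681 and 4006 CPM in Nsd2 Vil-KO. The control libraries lay close together (3424 ± 167, SD, n = 3), 2 of the knockout libraries lay above them and the other one among them (4012 ± 666, SD, n = 3). The log2 fold change was 0.23 (SE 0.28, unadjusted p = 0.445, 95% interval -0.44 to 0.90, edgeR).

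Muc4 and Muc20 are neighbours whose exons overlap by 627 bases on opposite strands. Muc4 encodes a very large mucin that binds the receptor ErbB2 (ENSMUSG00000079620, chr16:32735886-32782391, plus strand), and Muc20 a mucin known to bind the receptor Met (ENSMUSG00000035638, chr16:32777419-32797435, minus strand). Because the counting is not stated to use strand, reads in the shared 627 bases cannot be assigned to one of them. Their start sites lie at opposite ends of the locus, and the promoters are printed here with that of Muc13, which lies on the same chromosome, since Muc4 and Muc20 varied together over the 6 libraries and Muc13 did not follow them. Each run covers 250 bases before the start and 50 after it, 5′ to 3′ on the gene's own strand, from RefSeq on GRCm38.p6. The set of promoters used here held 5 of the 10 genes. Capitals mark matches on either strand to TTTAT, the core bound by the intestinal factor Cdx2, to AGATAA, the core of GATA sites, or to TTCNNNGAA, the palindrome of Stat sites.
Muc4 (chr16:32735636-32735935, plus strand): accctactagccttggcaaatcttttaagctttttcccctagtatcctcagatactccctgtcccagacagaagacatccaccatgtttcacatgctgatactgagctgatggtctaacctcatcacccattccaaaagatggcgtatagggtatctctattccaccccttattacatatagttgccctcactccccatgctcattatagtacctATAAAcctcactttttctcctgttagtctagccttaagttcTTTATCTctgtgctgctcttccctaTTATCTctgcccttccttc
Muc20 (chr16:32797386-32797685, minus strand): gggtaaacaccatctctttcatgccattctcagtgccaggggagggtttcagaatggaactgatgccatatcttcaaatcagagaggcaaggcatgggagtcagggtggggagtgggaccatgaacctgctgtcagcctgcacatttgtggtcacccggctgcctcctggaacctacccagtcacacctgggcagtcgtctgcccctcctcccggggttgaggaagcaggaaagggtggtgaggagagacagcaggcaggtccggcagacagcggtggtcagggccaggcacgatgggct
Muc13 (chr16:33793787-33794086, plus strand): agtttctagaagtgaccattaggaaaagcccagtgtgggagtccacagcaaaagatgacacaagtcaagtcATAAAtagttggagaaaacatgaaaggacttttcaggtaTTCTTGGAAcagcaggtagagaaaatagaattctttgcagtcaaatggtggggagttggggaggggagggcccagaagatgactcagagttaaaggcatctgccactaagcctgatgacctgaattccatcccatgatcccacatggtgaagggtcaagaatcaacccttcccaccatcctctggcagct
The Muc4 window held 2 matches to TTTAT and 2 to AGATAA, of which one of each shared letters. The Muc13 window held 1 match to TTTAT and 1 to TTCNNNGAA, and the Muc20 window held 0 matches to the 3 motifs. Among 32851 promoters of the same length, 40.0% held TTTAT, 11.2% AGATAA and 8.30% TTCNNNGAA, so the first is common and these matches only describe the letters present.

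Muc4 measured 149.8, 154.0 and 49.1 CPM in Nsd2 f/f and 218.1, 77.8 and 157.8 CPM in Nsd2 Vil-KO. The lowest library of each genotype was the one that stood apart, and the genotypes overlapped (117.6 ± 59.4 and 151.2 ± 70.4, SD, n = 3 each). Between genotypes the log2 fold change was 0.36 (SE 0.51, unadjusted p = 0.501, 95% interval -0.84 to 1.57, edgeR). It was -0.0041 without Nsd2 f/f replicate 3, and 0.42 with an unadjusted p of 0.0439 (adjusted p = 0.632) when the presence of Xist transcripts was a covariate, a setting in which 7.82% of all tested genes passed the criterion. Relative to Muc13, the log2 ratio of Muc4 counts was -4.43, -4.53 and -6.15 in Nsd2 f/f and -3.94, -5.91 and -4.67 in Nsd2 Vil-KO, again lowest in the libraries that stood apart. The difference of 0.20 (exact permutation test, two-sided, p = 0.7, adjusted p = 0.8 over 4 ratios) turned to -0.36 without Nsd2 f/f replicate 3 and to -0.25 when Nsd2 Vil-KO replicate 1 was left out.

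Muc20 was near the lower limit of what these libraries measured, with 33, 34 and 9 counts in Nsd2 f/f and 77, 15 and 60 in Nsd2 Vil-KO. This corresponded to 1.64, 2.01 and 0.727 CPM and to 3.75, 0.832 and 3.07 CPM. As for Muc4, the pair of libraries that stood apart were the lowest of their genotypes, and the other knockout libraries lay above the other control libraries. The log2 fold change over all 6 was 0.78 (SE 0.63, unadjusted p = 0.257, edgeR). It was 1.19 (unadjusted p = 0.0399, adjusted p = 0.760) without Nsd2 Vil-KO replicate 2, with 5.08% of all genes past the criterion, and 0.92 (unadjusted p = 0.0374, adjusted p = 0.432) in the 4 libraries other than the pair that stood apart, with 11.0% past it. With limma-voom and quality weights, where 9.83% of all genes passed, it was 0.86 (unadjusted p = 0.0419, adjusted p = 0.495). It was lower, and not past the criterion, without Nsd2 Vil-KO replicate 1 (0.40, unadjusted p = 0.599), without Nsd2 f/f replicate 3 (0.50, unadjusted p = 0.480) and on the log2(FPKM + 1) scale (0.24, unadjusted p = 0.273). Muc20 counts made up between 1.07% and 1.94% of the Muc4 counts in the same library, and the share of these that came from the exons shared with Muc4 is unknown.

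Muc1, whose cytoplasmic tail takes part in signalling and which appears on most glandular epithelia (ENSMUSG00000042784, chr3:89229057-89233381, plus strand), measured 31.2, 47.8 and 19.1 CPM in Nsd2 f/f. In Nsd2 Vil-KO it measured 33.1, 50.6 and 65.4 CPM. Replicates 2 and 3 of the knockout lay above all controls, the former by less than 3 CPM, and replicate 1 lay among them (32.7 ± 14.4 against 49.7 ± 16.2, SD, n = 3 each). Their log2 fold change was 0.60 (SE 0.38, unadjusted p = 0.157, 95% interval -0.29 to 1.50, edgeR). Leaving out Nsd2 f/f replicate 2 gave 0.98 with an unadjusted p of 0.0378 (adjusted p = 0.999), with 2.14% of all genes past the criterion. It was 0.34 (unadjusted p = 0.368) without Nsd2 f/f replicate 3 and 0.36 (unadjusted p = 0.421) without Nsd2 Vil-KO replicate 3.

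**Figure D2:**
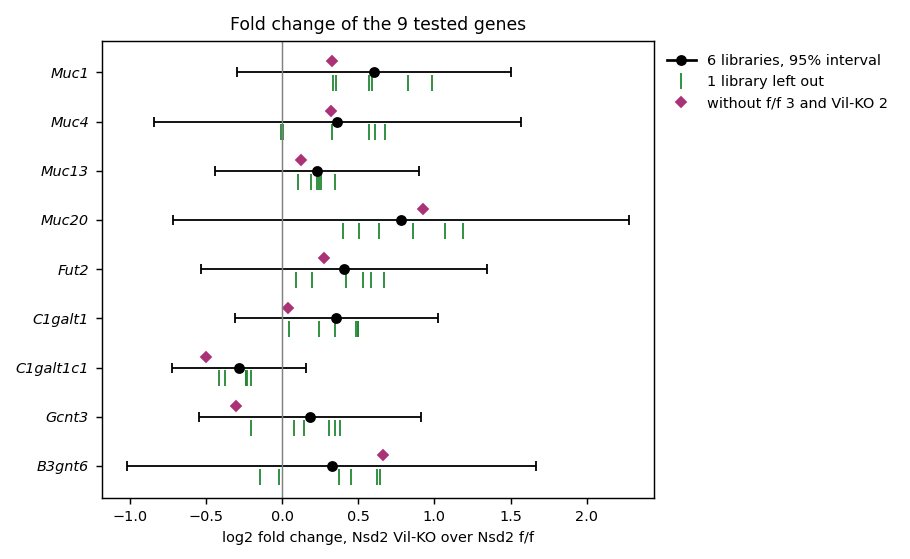
Log2 fold change (Nsd2 Vil-KO over Nsd2 f/f) of the 9 tested genes, with the 95% interval as a bar. The x axis is the log2 fold change, the vertical line marks no difference, green ticks are fits with 1 library left out, and diamonds are fits without the pair of libraries that stand apart. Each interval spans 0, and the 6-library point of C1galt1c1 alone lies below it, at -0.28.

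Core 1 synthesis rests on the enzyme C1galt1 (ENSMUSG00000042460, chr6:7844842-7875687, plus strand) and on its chaperone C1galt1c1 (ENSMUSG00000048970, chrX:38630785-38635087, minus strand), without which the enzyme is not folded. C1galt1 measured 268.9, 189.8 and 222.3 CPM in Nsd2 f/f and 237.8, 403.8 and 230.5 CPM in Nsd2 Vil-KO. Nsd2 Vil-KO replicate 2 stood far above the other 5 libraries, which overlapped. This gave a log2 fold change of 0.36 (SE 0.28, unadjusted p = 0.247, 95% interval -0.31 to 1.02, edgeR), and one of 0.046 without that library.

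C1galt1c1 measured 90.9, 90.1 and 73.4 CPM in Nsd2 f/f and 62.0, 81.9 and 65.2 CPM in Nsd2 Vil-KO. The genotypes overlapped through the pair of libraries that stood apart: Nsd2 f/f replicate 3 was the lowest control and Nsd2 Vil-KO replicate 2 the highest knockout library. The log2 fold change was -0.28 (SE 0.19, unadjusted p = 0.172, 95% interval -0.72 to 0.16, edgeR). Among the other 4 libraries the knockout mean of 63.6 CPM was 70.3% of the control mean of 90.5 CPM, with a log2 fold change of -0.50 (SE 0.10, unadjusted p = 0.00202, adjusted p = 0.327, edgeR), in a fit where 11.0% of all genes passed the criterion. The gene is X-linked and the libraries left out are those with Xist transcripts. With the presence of Xist transcripts as a covariate the log2 fold change was -0.29 (unadjusted p = 0.134) and did not pass the criterion. Without Nsd2 Vil-KO replicate 2 alone the value was -0.41 (unadjusted p = 0.0380, adjusted p = 0.760), and with limma-voom and quality weights -0.47 (unadjusted p = 0.00233, adjusted p = 0.418).

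The ratio of enzyme to chaperone counts did not overlap between the genotypes. The log2 ratio of C1galt1 to C1galt1c1 was 1.56, 1.07 and 1.60 in Nsd2 f/f and 1.94, 2.30 and 1.82 in Nsd2 Vil-KO. Each knockout library lay above each control library. The means differed by 0.61 (1.41 ± 0.29 against 2.02 ± 0.25, SD, n = 3 each; exact permutation test, two-sided, p = 0.1, the smallest that 10 splits allow, adjusted p = 0.4 over 4 ratios), so the design could not reach 0.05, and with any one library left out the difference lay between 0.44 and 0.71. Levels of each gene alone overlapped, as given above, and the ratio was chosen with earlier results of these data known.

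Gcnt3, the branching enzyme of core 2 and core 4 (ENSMUSG00000032226, chr9:70031496-70038088, minus strand), measured 110.7, 85.6 and 76.7 CPM in Nsd2 f/f and 84.9, 151.9 and 72.9 CPM in Nsd2 Vil-KO. The highest and the lowest library were both knockouts. The fitted log2 fold change was 0.18 (SE 0.31, unadjusted p = 0.575, 95% interval -0.55 to 0.91, edgeR) and its sign rested on Nsd2 Vil-KO replicate 2, without which it was -0.20.

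B3gnt6, the core 3 synthase (ENSMUSG00000074004, chr7:98192417-98199481, minus strand), was detected at a low level, with 69, 23 and 52 counts in Nsd2 f/f and 118, 63 and 37 in Nsd2 Vil-KO. Its CPM were 3.42, 1.36 and 4.20 in Nsd2 f/f and 5.75, 3.50 and 1.89 in Nsd2 Vil-KO. The values of the genotypes interleaved, and the log2 fold change of 0.33 (SE 0.57, unadjusted p = 0.586, 95% interval -1.02 to 1.67, edgeR) became -0.02 when Nsd2 f/f replicate 2 was left out and -0.14 when Nsd2 Vil-KO replicate 1 was. The log2 ratio of Gcnt3 to B3gnt6 counts, which sets core branching beside core 3 synthesis, ranged from 4.18 to 5.95 in Nsd2 f/f and from 3.88 to 5.43 in Nsd2 Vil-KO and differed by -0.19 (exact permutation test, p = 0.8, adjusted p = 0.8 over 4 ratios). Its direction turned without Nsd2 f/f replicate 2 (0.26) or Nsd2 Vil-KO replicate 1 (0.30).

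St6galnac1, the sialyl-Tn synthase (ENSMUSG00000009588, chr11:116765025-116775507, minus strand), had 0, 2 and 2 counts in Nsd2 f/f and 3, 2 and 0 in Nsd2 Vil-KO. Each library was at or under the floor of 3 counts, so the gene was not tested with edgeR and no fold change is given. The ratio of St6galnac1 to C1galt1 counts, which was among the 4 ratios, therefore rests on counts at or under the floor. It was kept in the adjustment (difference of -0.42, exact permutation test, two-sided, p = 0.7, adjusted p = 0.8) and is not interpreted. The other 9 genes each had more than 3 counts in every library.

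Fut2, which makes the H antigen on secretory and surface glycans (ENSMUSG00000055978, chr7:45648591-45666394, minus strand), was the enzyme with the highest level. It measured 722.8, 630.1 and 275.5 CPM in Nsd2 f/f and 711.2, 534.2 and 912.7 CPM in Nsd2 Vil-KO. The lowest library of each genotype was again the one that stood apart, and the remaining libraries overlapped. Fut2 had a log2 fold change of 0.41 (SE 0.40, unadjusted p = 0.340, 95% interval -0.53 to 1.34, edgeR), and 0.092 without Nsd2 f/f replicate 3.

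**Figure D3:**
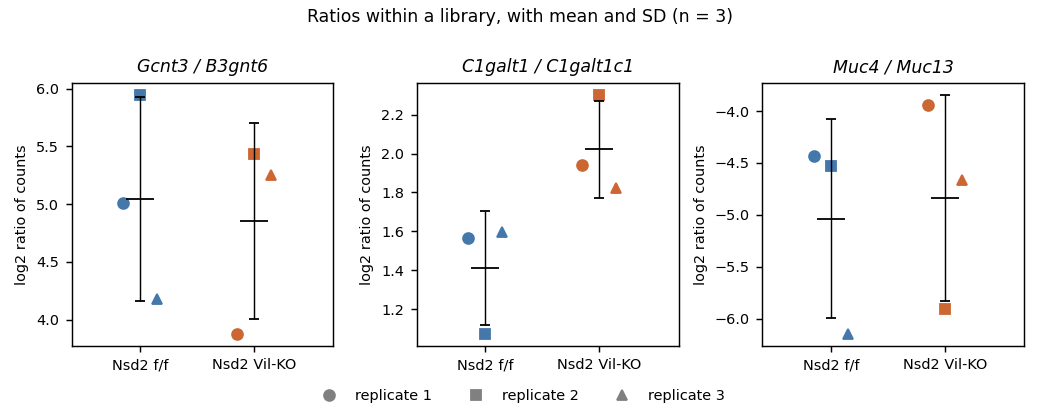
Log2 ratio of the counts of 2 genes in each library, by genotype. Points are libraries with a shape for each replicate number, and the line and bar give the mean and SD of 3. For C1galt1 over C1galt1c1 the knockout libraries (1.82 to 2.30) all lie above the control libraries (1.07 to 1.60), and for the other pairs the genotypes overlap.

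Levels of different genes were compared per length, as CPM per kilobase of annotated exon, averaged over the 6 libraries. On this scale Muc13 stood at 1224 ± 178 (SD, n = 6) and Fut2 at 116.2 ± 39.5. C1galt1c1 (53.3 ± 8.54) and C1galt1 (42.5 ± 12.4) followed, and then Gcnt3 (22.6 ± 6.95), Muc1 (17.6 ± 7.07) and Muc4 (11.4 ± 5.19). At the lower end were B3gnt6 (1.41 ± 0.67), Muc20 (0.498 ± 0.301) and St6galnac1 (0.0374 ± 0.030). The range over libraries separated Muc13 from Fut2, Muc4 from B3gnt6 and Muc20 from St6galnac1. The neighbours in between had overlapping ranges, although within a library C1galt1c1 exceeded C1galt1 in 5 of 6, Gcnt3 exceeded Muc1 in 4 of 6 and Muc1 exceeded Muc4 in 5 of 6.

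**Figure D4:**
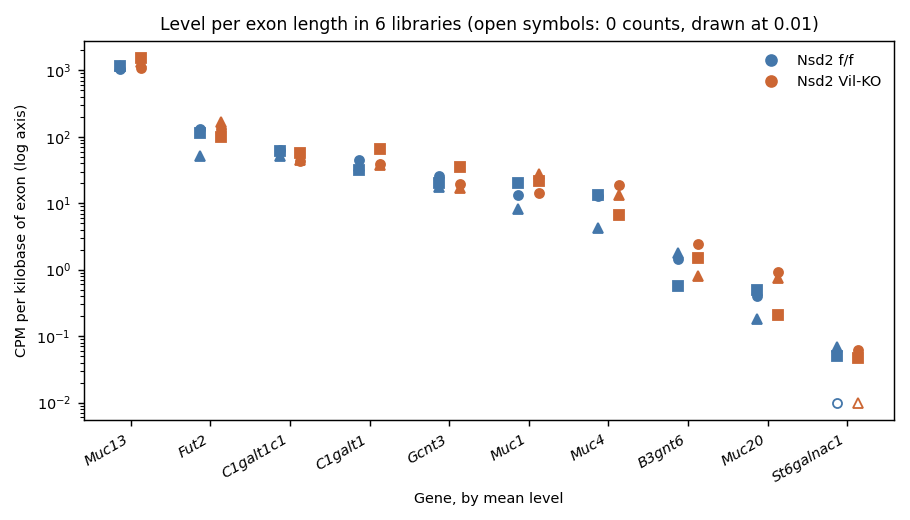
Level per length of the 10 genes in each library, on a log axis (CPM per kilobase of exon). Points are libraries by genotype, ordered from the highest gene to the lowest. Muc13 lies at or above 1065 in each library and St6galnac1 at or below 0.0676, with libraries at 0 drawn as open symbols at 0.01.

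Several of the genes varied together over the 6 libraries. The values given are Pearson correlations of log2 CPM over 6 libraries that also differ in RNA composition, and they are given as a description. Muc4 correlated with Muc20 (0.935) and with Fut2 (0.885), and these 3 were lower in the pair of libraries that stood apart than in the other libraries of the same genotype. C1galt1 correlated with Gcnt3 (0.889), both being highest in Nsd2 Vil-KO replicate 2. The enzyme C1galt1 and its chaperone did not vary together (0.135), nor did Gcnt3 and Fut2 (0.009).

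Markers of the cell types in the preparation also moved between libraries. The summed CPM of 7 goblet cell markers was 14098 to 16375 in Nsd2 f/f and 9866 to 11062 in Nsd2 Vil-KO, without overlap, with 7 of 7 markers below 0 in log2 fold change and Clca1 past the criterion. The summed CPM of 4 tuft cell markers was 6.91 to 11.7 in Nsd2 f/f and 18.9 to 40.6 in Nsd2 Vil-KO, with Avil and Sh2d6 past it. Dclk1 (0.31, unadjusted p = 0.684, edgeR) and Trpm5 (0.82, unadjusted p = 0.158, edgeR) also lay above 0. They were not past the criterion, and their values overlapped between the genotypes. In Nsd2 Vil-KO replicate 2, Avil made up 30.4 CPM of the sum of 40.6. The summed CPM of 5 enteroendocrine markers was 108.0 to 167.4 in Nsd2 f/f and 96.7 to 103.4 in Nsd2 Vil-KO, without overlap and with 0 of 5 past the criterion, and that of colonocyte markers 4333 to 8993 and 4503 to 5781. Stem and cycling crypt cell markers summed to 478.0, 472.8 and 106.8 CPM in Nsd2 f/f and 479.3, 169.4 and 674.2 CPM in Nsd2 Vil-KO, so they were lowest in the pair of libraries in which Muc4, Muc20 and Fut2 were lowest. Leukocyte markers summed to 22.9 to 719.8 CPM in Nsd2 f/f and 59.1 to 992.8 CPM in Nsd2 Vil-KO, stromal markers to 13.5 to 318.6 and 14.0 to 90.4 CPM, and markers of stratified squamous epithelium to 1.13 to 2.43 and 1.83 to 3.36 CPM, with Krt5 and Krt4 at 0 in each library. Of the stromal markers 7 of 7 tested lay below 0 and Pecam1 (-1.33, unadjusted p = 0.0462, edgeR) was past the criterion. Of the squamous markers 2 were tested. Krt13 was past the criterion and higher (1.83, unadjusted p = 0.0240, edgeR), with 19, 9 and 1 counts in Nsd2 f/f and 54, 24 and 40 in Nsd2 Vil-KO. Krt14 lay below 0 (-0.88, unadjusted p = 0.145, edgeR). Their part in the values of the mucins and enzymes was not tested. In bulk libraries, fewer cells of a type and less RNA per cell cannot be told apart.

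The wider pathway was followed in 8 lists with 106 gene symbols, of which 101 were in the table and 78 were tested. Of these 78, 2 were past the criterion and higher in Nsd2 Vil-KO, against 1.65% of all genes, 1 was past it and lower, against 1.65% as well, and the median log2 fold change was -0.02. Of 8 other transmembrane mucins, 2 were tested and 0 passed. Muc3, a mucin of the brush border, measured 3389, 5165 and 4145 CPM in Nsd2 f/f and 3430, 2372 and 2725 CPM in Nsd2 Vil-KO, a log2 fold change of -0.57 (SE 0.31, unadjusted p = 0.109, edgeR). It passed the criterion with no filter (-0.57, unadjusted p = 0.0487), with DESeq2 (-0.58, unadjusted p = 0.0319), with limma-voom and quality weights (-0.53, unadjusted p = 0.0419) and with the Xist covariate (-0.58, unadjusted p = 0.0424). Muc3a lay at -0.17 (unadjusted p = 0.682, edgeR). How reads were divided between Muc3 and Muc3a was not tested, which also limits the shares given next. Levels per length and these shares further rest on the annotated exon lengths. These were 1943 bases for Muc3, 1887 for Muc3a, 3038 for Muc13 and 11757 for Muc4, and whether they are complete was not tested. Per length Muc3 (1821 CPM per kilobase) and Muc13 were the most abundant of the 6 transmembrane mucins tested. Muc13 took 36.74%, 29.6% and 34.29% of their summed level in Nsd2 f/f and 36.79%, 54.5% and 46.89% in Nsd2 Vil-KO, so each knockout library lay above each control library, the closest pair by less than 0.1 percentage points. Muc3 took 60.17% to 67.26% in Nsd2 f/f and 43.19% to 58.9% in Nsd2 Vil-KO, also without overlap, and since these 2 mucins make up nearly all of the sum, their shares are not independent of each other. The shares were not among the planned results and no test was run on them. For comparison, the groups did not overlap for 9.90% of all tested genes. Muc1, Muc4 and Muc20 each stayed below 1% in every library.

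The first step, the addition of GalNAc, was represented by 11 tested transferases of 19, with 5 above and 6 below 0, 0 past the criterion and a median of -0.22. Galnt12 and Galnt4 had the highest levels per length (66.7 and 38.5 CPM per kilobase). The 18 tested core and extension enzymes of 21 had a median of -0.02, and B3gnt3 and B3galt5 the highest levels (163.2 and 153.4 CPM per kilobase). Of the 18, Gcnt4 and B4galt6 were past the criterion and higher in Nsd2 Vil-KO. Gcnt4, a core 2 branching enzyme, measured 3.27, 2.01 and 2.75 CPM in Nsd2 f/f and 4.63, 17.8 and 4.60 CPM in Nsd2 Vil-KO. Each knockout library lay above the controls, and Nsd2 Vil-KO replicate 2 far above the other knockouts. Gcnt4 had a log2 fold change of 1.74 (SE 0.62, unadjusted p = 0.0264, adjusted p = 0.992, edgeR), 0.78 and no longer past the criterion without that library, and no longer past it without Nsd2 f/f replicate 2 (1.57) or replicate 3 (1.76). The call was also lost in the 4 libraries (0.79, unadjusted p = 0.0509), on log2(FPKM + 1) (0.74, unadjusted p = 0.0709) and with the replicate block (1.43, unadjusted p = 0.0796). B4galt6, a galactosyltransferase known for making lactosylceramide rather than mucin glycans, measured 35.0, 26.7 and 27.6 CPM in Nsd2 f/f and 44.7, 61.2 and 41.4 CPM in Nsd2 Vil-KO, again without overlap. Its log2 fold change was 0.72 (SE 0.22, unadjusted p = 0.0133, adjusted p = 0.992, edgeR), and without Nsd2 f/f replicate 2 it was 0.65 and no longer past the criterion.

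Of 15 genes for sialyltransferases and the supply of sialic acid, 13 were tested, with 4 above and 9 below 0 and a median of -0.09. St6gal1, which adds sialic acid mainly to N-glycans, was past the criterion and lower in Nsd2 Vil-KO. It measured 81.8, 65.8 and 86.5 CPM in Nsd2 f/f and 30.9, 20.6 and 49.4 CPM in Nsd2 Vil-KO. The genotypes did not overlap, and the log2 fold change was -1.21 (SE 0.32, unadjusted p = 0.00689, adjusted p = 0.992, edgeR), between -1.60 and -0.96 with any one library left out and past the criterion each time. St6galnac6 and Nans, for which the CPM per kilobase were 233.9 and 177.2, had the highest levels of this list.

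The other lists held no gene past the criterion. The 8 tested genes of 11 symbols for fucosyltransferases and fucose supply had 5 above and 3 below 0 with a median of 0.09. Gfus and Fuk, other symbols of Tsta3 and Fcsk in the same list, were not in the table. Gmds and Slc35c1, which make and transport GDP-fucose, had the highest levels (143.1 and 101.3 CPM per kilobase). The 10 tested genes of 15 for sulfation had 3 above and 7 below 0 with a median of -0.26, led in level by Papss2 (68.3) and Chst4 (58.1 CPM per kilobase). The 12 tested genes of 13 for UDP-sugar supply had 8 above and 4 below 0 with a median of 0.05, and Gfpt1, the first enzyme of the hexosamine pathway, stood at 95.5 CPM per kilobase. The 4 sheddases, proteases that can release mucin ectodomains, all lay above 0 with a median of 0.30, led by Adam10 (34.2) and Adam9 (22.8 CPM per kilobase).

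**Figure D5:**
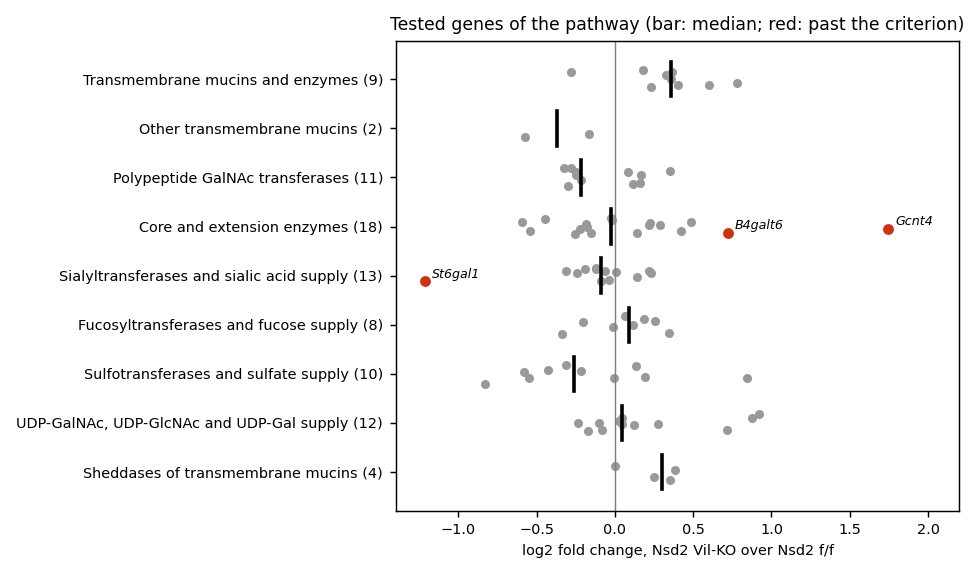
Log2 fold change (Nsd2 Vil-KO over Nsd2 f/f) of each tested gene in the 10 genes described here and in the 8 lists of the pathway, with the number tested in brackets. Points are genes, red where they pass the criterion, and the vertical black bar is the median of a list. Gcnt4 (1.74), B4galt6 (0.72) and St6gal1 (-1.21) are the genes past the criterion.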

How the data were processed

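RNA-seq counts of 6 libraries were analysed, 3 for each genotype as given in the labels. Raw read counts for each gene were deposited by the authors as whole numbers, not normalised, and were made from reads aligned to mm10 with HISAT2 according to the submitters' processing notes. The methods describe polyA selection, a directional kit and trimming with Cutadapt and Trimmomatic, whereas the labels name another kit. The counting program, its annotation and its use of strand are not given in the sources used here. Each of the 6 columns was used. Positions and exon lengths came from GENCODE vM21 on GRCm38, which held 99.4% of the gene identifiers.

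Genotypes were compared by edgeR 4.0.16 under R 4.3.3 (TMM factors, filterByExpr by genotype, robust quasi-likelihood test, no covariates, Benjamini-Hochberg adjustment over 14650 genes). The biological coefficient of variation was 41.2%. Intervals are 95% from the t distribution of the fit. Exact permutation tests used the 10 splits of 3 against 3. The fit was also run on simulated counts. These held no libraries that stood apart, so the simulation does not cover that feature of the data. No pair of libraries held identical values (0 pairs), and same-numbered libraries did not deviate together (correlations of 0.322, -0.350 and -0.108), so the numbers were not taken as pairs. DESeq2 1.42.0, limma 3.58.1 (voom with quality weights, and log2(FPKM + 1)), other normalisations and filters, a replicate block, an Xist covariate, each library left out and 4 libraries were tried as alternatives. Leaving out mitochondrial genes and the older quasi-likelihood method were added after seeing the data. Figures were drawn with matplotlib 3.10.9.

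The genes and lists were chosen with earlier results of these data known. The rule named the 10 genes, Nsd2, each list gene past the criterion, the 2 tested genes of each list with the highest level per length and, for each of the 10, the tested gene with the most similar profile. A gene that the rule names is not reported here. The floor of 3 counts was a chosen limit and was not estimated from these data.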

Additional observations from a re-analysis of the deposited data

How the results depend on the processing

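None of the 9 tested genes passed the criterion under library size only, DESeq2-type size factors, both other filters, DESeq2, log2(FPKM + 1), the replicate block, the omission of mitochondrial genes, the older quasi-likelihood method or other fold limits (Muc20 was not tested with at least 10 counts in each library). Under limma-voom with quality weights 2 passed (C1galt1c1 at -0.47 and Muc20 at 0.86), in the 4 libraries 2, with the Xist covariate 1 (Muc4), and with one library left out between 0 and 2. Over all genes, against 482, the number past the criterion was 1440, 1646 and 1145 for the first 3, 769 without Nsd2 Vil-KO replicate 2, 323 without Nsd2 f/f replicate 2 (where Muc1 passed), 861 with no filter and 303 with the block. No adjusted p of the 9 was below 0.05 in any of them, the smallest being 0.327. The median log2 fold change of the 9 lay between 0.24 and 0.50. Pathway list genes past the criterion numbered 3, against 5 with library size only, 6 with no filter, 5 with DESeq2, 11 with voom, 12 in the 4 libraries, 10 with the Xist covariate and 1 to 6 with one library left out. Gcnt3 reversed to -0.24 with voom and -0.30 in the 4 libraries. With one library left out, the log2 fold change ran from -0.20 to 0.38 for Gcnt3, -0.14 to 0.64 for B3gnt6, -0.0041 to 0.68 for Muc4 and -0.66 to 0.0992 for Muc3a, and the difference in log2 ratio from -0.62 to 0.30 for Gcnt3 over B3gnt6 and -0.36 to 0.73 for Muc4 over Muc13. The cause was not tested. With the replicate block 0 of the 9 and 2 list genes passed (Gcnt4 lost its call), with a median of 0.34 for the 9. Depth limits Muc20, B3gnt6 and St6galnac1, which had 0 to 118 counts per library.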

Other observations

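For each of the 9 tested genes, the gene with the most similar profile was sought among 14649 others by Pearson correlation of log2 CPM over 6 libraries, with no test. It was Ano9 for Muc4 (0.991), Duox2, an oxidase that makes hydrogen peroxide at the epithelial surface, for Muc20 (0.997) and Hk2, a hexokinase of glycolysis, for Fut2 (0.998). It was Zfp654 for Muc1 (0.990), E130309D02Rik for Muc13 (0.991), Fance for C1galt1 (0.993), Gm7984 for C1galt1c1 (0.972), Rcan3 for Gcnt3 (0.994) and Spsb2 for B3gnt6 (0.983). With 6 libraries such values are common: 284 genes reached 0.95 with Fut2, 225 with Muc4 and 134 with Muc20, but 4 with C1galt1c1.

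Several members of these enzyme families were not detected at this depth. Of the 111 genes of the pathway in the table, the 10 described genes included, 7 had 0 counts in each library: the mucin Muc15, the GalNAc transferases Galnt13, Galnt14 and Galntl5, the extension enzyme B3gnt4, the sialyltransferase St6galnac5 and the sulfotransferase Gal3st4. A further 7, St6galnac1, Galnt9, Galnt17, B3galt1, St6galnac3, Chst5 and Gal3st3, had at most 3 counts in a library.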
